A study of Homo sapiens with 10 samples.

Results

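Human 28S rRNA positions C420 to G1299, the stretch that holds expansion segment 7, were examined in RibOxi-seq libraries of PA1 cells, a human ovarian teratocarcinoma line. The bounds are positions along 28S, and the stretch was picked because it lies in the longest part of 28S without a site in the study's site list. That list was made from the NextSeq libraries by thresholds on fold change and adjusted p, together with annotated sites, so the choice was not independent of the NextSeq contrast. The positions comprise 880 of the 6939 18S and 28S positions in the deposited count files. The study describes the count of a position as the number of sense reads whose 3′-end aligned there, and 10 libraries were measured. Control totals exceeded the reads that the study reports for those libraries, so what a count stands for is not known. Each group had 3 libraries on the NextSeq, and a low-input pilot on the MiSeq had 2 of each, control and oxidized. On the NextSeq, replicates 1 and 2 of both groups were of passage 6 and replicate 3 of passage 4. The MiSeq libraries were of passage 7. The labels do not say that replicates came from separate cultures, and the study's protocol recommends technical replicates. The p-values therefore measure the spread between these libraries, which may be technical. All libraries started from total RNA fragmented by Benzonase. In oxidized libraries the terminal base was removed by β-elimination and the exposed ends were oxidized with periodate before linker ligation, and control libraries were made from fragments set aside before those steps.

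Ribose 2′-O-methylation is placed on rRNA mainly by box C/D snoRNPs, in which a guide snoRNA pairs with the target and fibrillarin transfers the methyl group. A methylated terminal ribose resists periodate, so a 2′-O-methylated position gathers read ends in oxidized libraries, whereas unmethylated ends are lost from ligation. Expansion segments are insertions in eukaryotic rRNA, rich in G and C in mammals, that extend from the surface of the large subunit. Expansion segment 7 is among the longest of them.

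The stretch held none of the 106 known methylation sites of the study's list (40 in 18S and 66 in 28S). The nearest were 28S A399, 21 nt upstream of its first base, and 28S G1315, 16 nt downstream of its last. The 916 nt between these sites were the longest distance between neighbouring known sites in 28S, which is what the stretch was picked for. The stretch lies at 113768 to 114647 of the unplaced hg19 (GRCh37) contig GL000220.1, on the plus strand, inside the 28S rRNA gene, and an identical copy lies at 157740 to 158619. Reads from either copy cannot be told apart. Its bases were 64 A, 370 C, 356 G and 90 U, with a GC content of 82.5% against 69.4% in all of 28S.

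Levels are given as CPM, the counts at a position scaled to a common library total. At 94 of the 880 positions no library had a count, and these positions formed 2 unbroken runs. They are printed 5′ to 3′ with 20 nt on each side, and capitals mark the bases without counts (hg19, plus strand, written as RNA).
28S 763 to 798, at 114111 to 114146: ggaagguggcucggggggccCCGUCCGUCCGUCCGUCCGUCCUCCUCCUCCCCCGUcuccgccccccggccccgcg
28S 847 to 904, at 114195 to 114252: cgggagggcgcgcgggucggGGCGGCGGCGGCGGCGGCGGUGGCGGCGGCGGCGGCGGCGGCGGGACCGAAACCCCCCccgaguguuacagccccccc
The shorter run, of 36 nt, is a CCGU repeat followed by CCU repeats, and the longer one, of 58 nt, is mostly a GGC repeat. The 5′ edge of the shorter run was abrupt in control libraries. The last base before the shorter run had 30376 and 16430 counts in the control MiSeq libraries and 1194, 1406 and 16214 in the control NextSeq libraries, and the next 36 positions had 0 in every one of them. Over the 20 nt before the longer run the control libraries held between 23580 and 169453 counts on the NextSeq, and the 58 positions after them held none. Beyond the 3′ edges counts were lower. The first base after the shorter run had 12 and 52 counts in the control MiSeq and 0, 0 and 2 in the control NextSeq libraries, and the control NextSeq mean was 128.9 CPM over the 20 nt before that run and 5.92 over the 20 nt after it. The first base after the longer run had 362 and 0 counts in the control MiSeq and 946, 1138 and 0 in the control NextSeq libraries, and the control NextSeq means before and after it were 73.7 and 16.2 CPM.

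Runs of this kind were found at only 4 places inside 18S and 28S, counting runs of at least 10 nt that do not touch a gene's first base. The other 2 were also in 28S, of 37 nt at positions 2151 to 2187 and of 46 nt at positions 3482 to 3527. The word GGCGGCGGCGGC, chosen after the runs were seen and searched on the rRNA strand with overlaps allowed, occurred 14 times in 28S and 0 times in 18S, and 13 of the 14 lay entirely inside such runs. The word CCGUCCGUCCGU occurred 3 times, each inside the shorter run. Within 18S and 28S, no 25-nt word ending in the stretch was repeated, and all 7 positions where a repeated 20-nt word ended lay in the runs. Whether alignment of repeats set these runs was not tested.

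**Figure D1:**
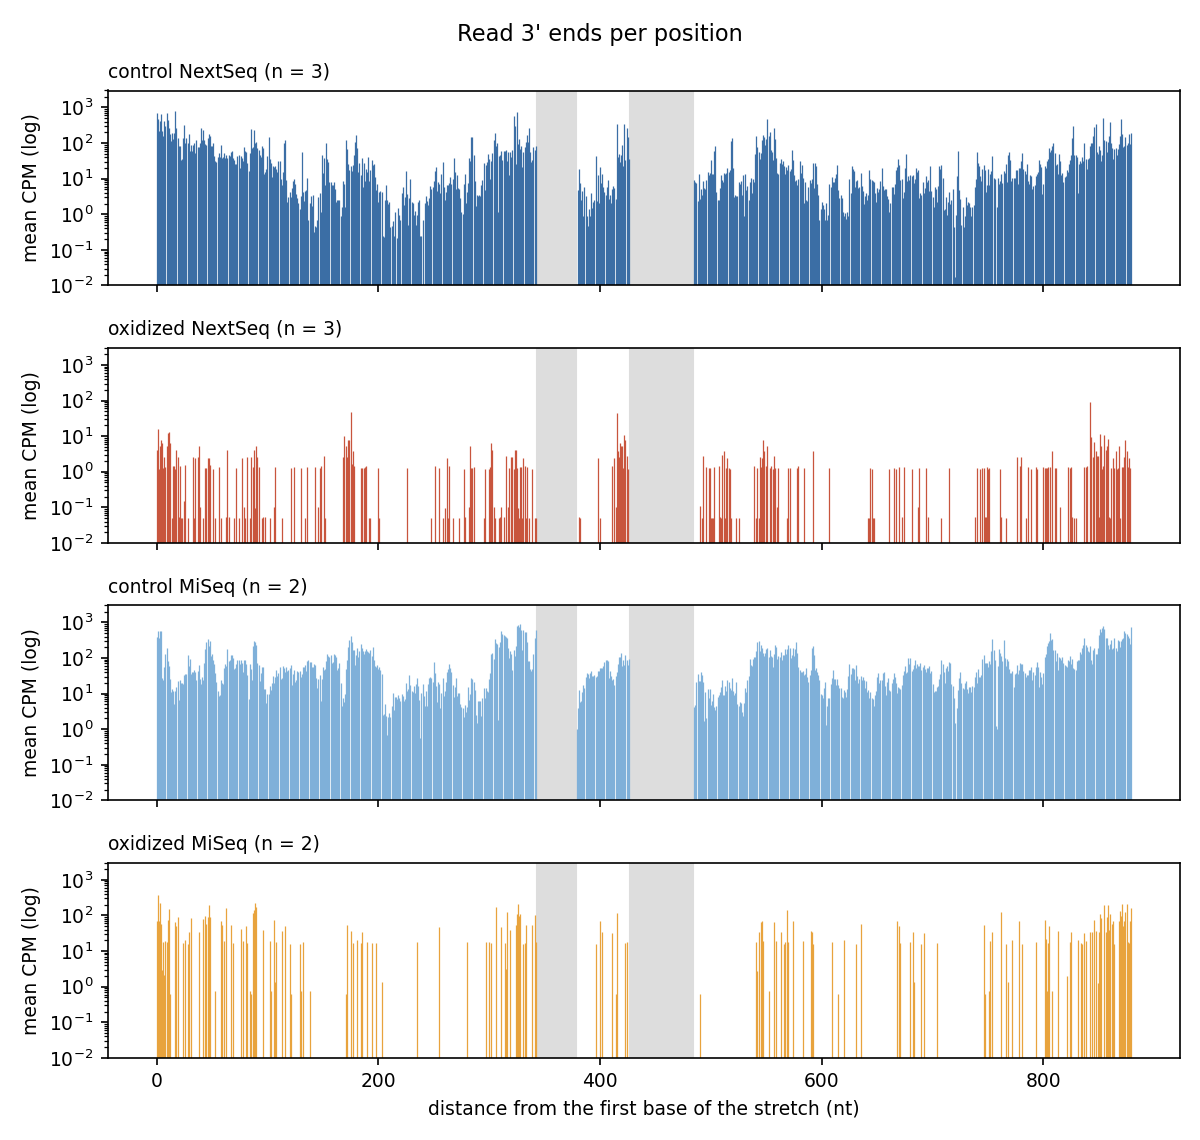
Mean CPM (log axis) of read 3′-ends at each position, by distance in nt from the first base of the stretch, for the 4 groups; grey bands mark the runs of 36 and 58 nt without counts. Control ends covered all other positions but 1 on the NextSeq, whereas oxidized ends fell at scattered positions.

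Outside these runs, control ends covered the stretch almost completely. In control NextSeq replicates 1, 2 and 3, 744, 746 and 770 positions had counts, and in the control MiSeq libraries 785 and 782. The median position had 422, 506 and 870 counts in control NextSeq replicates 1 to 3, against 2380, 2599 and 6260 over the 5953 other positions that are not known sites. The median of the stretch therefore lay below the median of the remaining background in each of them. In oxidized libraries 181, 148 and 165 positions had counts on the NextSeq and 157 and 156 on the MiSeq, so that most positions were at 0.

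Depth set a hard limit on the oxidized libraries. They held 13237673, 12293410 and 13694386 counts in all on the NextSeq, of which 9994, 8948 and 10750 fell in the stretch. Low counts gathered at 2 and at 50, and exactly 50 counts stood at 51, 56 and 51 of its positions. Counted at each position in whole steps of 50, with remainders and positions under 50 dropped, the 880 positions held 193, 173 and 207 steps. That a step is 1 read is an assumption. For these libraries a position at 0 could have had up to 3 counts, or 0.219 to 0.244 CPM, and taken as 3 reads the bound is 10.95 to 12.2 CPM. The oxidized MiSeq libraries held only 1568883 and 1353768 counts, and there the same bounds were 1.91 to 2.22 CPM and 95.6 to 110.8 CPM. These bounds cover counting error only.

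The stretch received fewer background ends than its length. It made up 12.9% of the positions outside known sites, yet took 3.60% ± 0.378 (SD, n = 3) of the counts outside known sites in control NextSeq libraries and 1.51% ± 0.102 (SD, n = 3) in oxidized ones. The single values were 3.38%, 3.38% and 4.04% in control and 1.56%, 1.39% and 1.58% in oxidized libraries, without overlap. In the MiSeq pilot the shares were 7.16% and 6.83% in control and 2.48% and 2.29% in oxidized libraries. The share was thus 2.38-fold lower after oxidation on the NextSeq and 2.93-fold lower on the MiSeq. The mean of the oxidized-minus-control differences of both experiments was -3.35 percentage points. Since the stretch was picked with the NextSeq contrast in view, the NextSeq shares are a description, with no test. The MiSeq libraries alone gave an exact two-sided permutation p = 0.333, the smallest that 2 libraries against 2 allow, so the difference could not pass a threshold of 0.05.

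**Figure D2:**
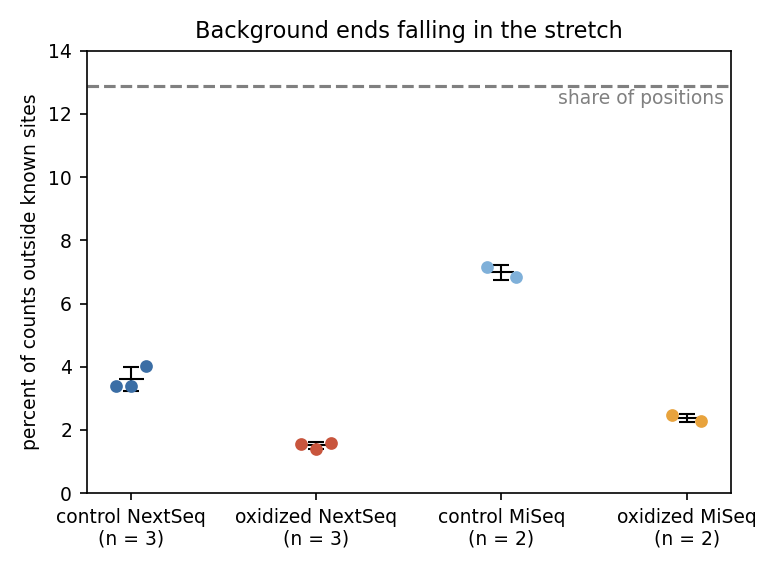
Percent of each library's counts outside known sites that ended in the stretch, with the group mean and SD as bars and each library as a point. All libraries lay below the dashed line at 12.9%, the share of positions, and the oxidized libraries lay between 1.39% and 2.48%.

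The lower share was compared with 2 other parts of 28S: a 760-nt stretch that holds expansion segment 27, with a GC content of 84.6%, and the last 410 nt of 28S, with 70.2%. The expansion segment 27 stretch holds 1 known site, which was left out of its values, so they cover 759 positions. Mean CPM per position of the stretch was 38.3, 38.2 and 45.5 in control NextSeq libraries, against 61.3, 58.4 and 45.5 in the expansion segment 27 stretch. In oxidized NextSeq libraries the values were 0.858, 0.827 and 0.892, against 1.01, 0.831 and 0.790. With that site left out, the log2 ratio of both GC-rich stretches had a mean of -0.43 in control and -0.02 in oxidized NextSeq libraries, and of -0.98 and 0.05 on the MiSeq. The oxidized-minus-control difference across both experiments was 0.72. It draws on the NextSeq contrast, with which the stretch was picked, so it is a description, with no test. With known sites kept the difference turned to -1.42, and without control NextSeq replicate 3 it was 0.82.

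Against the last 410 nt of 28S, the stretch was lower in every library. The log2 ratio was -2.24, -2.21 and -1.65 in control and -2.38, -2.58 and -2.43 in oxidized NextSeq libraries, and lay between -1.58 and -1.40 in all MiSeq libraries. The oxidized-minus-control difference across both experiments was -0.16, which is likewise a description, with no test.

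Large oxidized signals were looked for position by position. On the NextSeq their absence was largely fixed by the way the stretch was picked, so the NextSeq values are a description, and the MiSeq libraries were not used for the site list. The edgeR quasi-likelihood test was fitted to every 18S and 28S position with a count, 785 of them in the stretch, with p-values adjusted over all by Benjamini-Hochberg. At an adjusted p under 0.05 and a log2 fold change above 6, 0 of the 785 were called on the NextSeq and 0 on the MiSeq, whereas 1.58% and 2.85% of all tested positions were, among them 98 and 92 of the 106 known sites. DESeq2's Wald test also called 0 in both experiments. At an unadjusted p under 0.05, edgeR placed 4 positions of the stretch higher in oxidized NextSeq libraries and 8 in oxidized MiSeq libraries, where 4.93% and 12.1% of all tested positions were. The stricter bar, 7 on the log2 scale and 0.0001 for the adjusted p, was met by 0% of all tested positions in either experiment, known sites included, so edgeR could not separate them by it. DESeq2 called 99 and 156 positions at that bar, 0 of them in the stretch.

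The known sites on either side were read in the same libraries. A399 had 288033, 226495 and 266047 counts in oxidized and 732, 1012 and 8615 in control NextSeq libraries. G1315 had 12143, 14696 and 15356 counts in oxidized and 917, 617 and 2915 in control libraries. Both sets of oxidized counts lay above every control count. The log2 fold change was 13.18 (SE 1.18, edgeR adjusted p = 0.00239) at A399 and 9.99 (SE 0.82, edgeR adjusted p = 0.00168) at G1315. On the MiSeq, A399 had 22033 and 19723 counts in oxidized and 214 and 56 in control libraries, with a log2 fold change of 12.28 (SE 0.91, edgeR adjusted p = 0.00693). There G1315 had 1486 and 994 counts in oxidized and 1215 and 736 in control libraries, and these counts overlapped. After normalization its log2 fold change on the MiSeq was 5.27 (SE 0.35, edgeR adjusted p = 0.00693), below 6. In oxidized NextSeq libraries, 98 of the 106 known sites had a mean CPM above that of A1262, the highest position of the stretch.

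3 positions stood out among the oxidized NextSeq ends of the stretch. They are printed with 10 nt on each side, the end base in capitals (hg19, plus strand, as RNA).
A1262, at 114610: gaagagggggAcggcggagcg
C595, at 113943: agggggcgggCuccggcgggu
C835, at 114183: cucgggagggCgcgcgggucg
In each of these windows the end base follows GGG. This word, chosen after the positions were seen and read on the rRNA strand, precedes 83 of the 880 positions (9.43%). Such positions held 31.9%, 28.4% and 37.3% of the stretch's ends in oxidized NextSeq libraries and 8.26%, 8.17% and 7.23% in control ones, without overlap. With A1262, C595 and C835 left out they held 11.5%, 11.3% and 12.6% in oxidized and 6.60%, 6.37% and 6.96% in control NextSeq libraries. On the MiSeq, with the 3 included, they held 13.0% and 12.6% in oxidized and 9.81% and 9.52% in control libraries.

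A1262 had 1102, 949 and 1438 counts in oxidized NextSeq libraries and 6658, 7153 and 5031 in control ones. It alone held 11.03%, 10.6% and 13.4% of the oxidized ends of the stretch, against 0.272%, 0.263% and 0.166% of the control ends. Its level was 88.5 CPM ± 14.6 (SD, n = 3) in oxidized and 82.3 ± 13.7 (SD, n = 3) in control libraries, which overlapped. Relative to the other positions it was higher, with a log2 fold change of 3.98 (SE 0.75, edgeR adjusted p = 0.0359). When libraries were scaled by their totals the log2 fold change was 0.10 (edgeR adjusted p = 0.881), and with control replicate 1 or 2 left out the edgeR adjusted p was 0.105 or 0.0910. On the MiSeq A1262 had 50 and 50 counts in oxidized and 10689 and 5956 in control libraries. The oxidized counts were 1 step of 50 each. Its oxidized NextSeq level of 88.5 CPM lay below the MiSeq bound taken as 3 reads, 95.6 to 110.8 CPM. Scaled by library totals, the MiSeq log2 fold change of A1262 was -2.67. With TMM, which moved fold changes far more on the NextSeq than on the MiSeq, it was -2.42 (SE 0.36, edgeR adjusted p = 0.00861). That is opposite in sign to the NextSeq value, but on an unlike scale. The difference between the experiments had an edgeR interaction adjusted p = 0.0166. Both calls were lost when a control MiSeq library was left out. Without replicate 1 or 2 the edgeR adjusted p was 0.277 or 0.189 on the MiSeq and 0.0921 or 0.0828 for the interaction. The interaction also missed the threshold without oxidized MiSeq replicate 1 or 2 (edgeR adjusted p = 0.0569 or 0.0549) and with library totals only (0.0782).

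C595 had 580, 408 and 870 counts in oxidized and 1132, 1339 and 2823 in control NextSeq libraries. It had a log2 fold change of 5.12 (SE 0.74, edgeR adjusted p = 0.0222), the largest of the stretch among the 54 positions with a count in all 6 NextSeq libraries. Scaled by library totals the log2 fold change was 1.01 (edgeR adjusted p = 0.275), and without control replicate 1 or 2 the edgeR adjusted p was 0.0972 or 0.0802. On the MiSeq it had 0 and 100 counts in oxidized and 18714 and 12810 in control libraries, with a log2 fold change of -3.26 (SE 2.16, edgeR adjusted p = 0.262) that missed the threshold. The neighbouring G594 had 52, 52 and 204 counts in oxidized NextSeq libraries and G589 had 150, 100 and 156, with log2 fold changes of 2.81 (SE 0.97) and 4.19 (SE 1.36) that missed the threshold (edgeR adjusted p = 0.0790 and 0.0674).

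C835 had 624, 374 and 730 counts in oxidized NextSeq libraries. In control libraries it had 35689, 43893 and only 676 counts, so that replicate 3 lay far below the others. The log2 fold change was 0.69 (SE 1.35, edgeR adjusted p = 0.751), and it turned to -3.00 when libraries were scaled by totals. On the MiSeq it had 358 and 4 counts in oxidized and 2076 and 1050 in control libraries. The log2 fold change there was 1.74 (SE 1.85, edgeR adjusted p = 0.462), which missed the threshold and rested on 1 oxidized library. The 5 smallest NextSeq log2 fold changes among positions with a count in all 6 libraries were also read. They were -4.76 at G1274, -3.65 at C420, -2.84 at C505, -2.77 at C971 and -2.51 at G743. None of these passed the threshold (edgeR adjusted p = 0.0780 to 0.300).

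**Figure D3:**
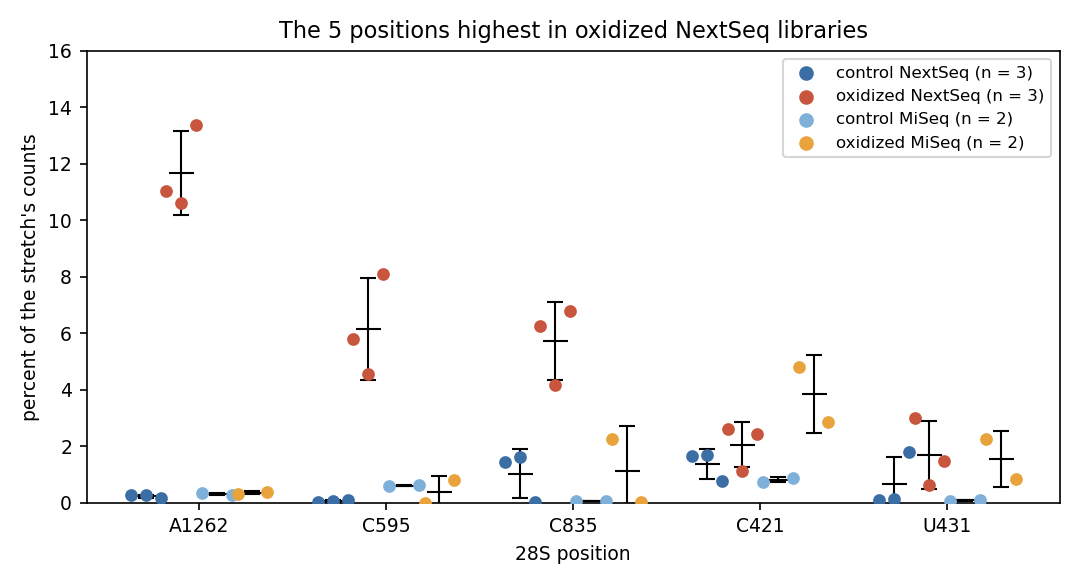
Percent of the stretch's counts at its 5 highest positions in oxidized NextSeq libraries, with each library as a point and the group mean and SD as bars. A1262 took 10.6% to 13.4% of the oxidized NextSeq ends of the stretch and 0.166% to 0.396% in the other libraries.

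A1262 and C595 were the only positions of the 785 called higher in oxidized NextSeq libraries (3.02% of all tested positions were, known sites included, so nothing is read from that gap), and 207 were called lower (26.4%, against 18.8% of all). With library totals only 509 were lower (64.8%, against 64.5% of all). DESeq2 called 349 lower (44.5%, against 33.1% of all), and counts divided by 50 gave 0, against 2 over all. The count of lower positions moved with the libraries used, as did that over all positions. It was 1 without control replicate 1, 3 without control replicate 2 and 271 without control replicate 3, against 22, 68 and 1686 over all positions. Without oxidized replicate 1, 2 or 3 it was 133, 107 or 105, which is 16.9%, 13.6% or 13.4% of the tested positions of the stretch against 15.9%, 13.1% or 13.7% of all. With the replicate number as a block 4 positions were lower, against 64 over all. With that block 0 were higher, against 115 over all, so A1262 and C595 were not called. Control replicate 3, from passage 4, stood apart. Across the stretch its Spearman's rho with replicates 1 and 2 was 0.620 and 0.633, whereas that of replicates 1 and 2 with each other was 0.974, and it was closer to the control MiSeq libraries (0.736 and 0.775) than they were (0.513 to 0.559). Counted in steps of 50, control replicates 1 and 2 hardly differed in the stretch (chi-square per degree of freedom 1.08), so they may not be independent. Most lower calls, and the higher calls of A1262 and C595, needed both of them. Counted over all 18S and 28S positions in steps of 50, oxidized NextSeq replicate 1 stood apart from replicates 2 and 3 (chi-square per degree of freedom 11.7 and 11.2). Those, of passages 6 and 4, differed little (1.15). Passage and library preparation cannot be told apart here.

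By CPM, 0 of the 880 positions had all oxidized NextSeq libraries above all controls (1.6% of all positions did, known sites included). All lay below at 648 (73.6%, against 82.9% of all). On the MiSeq 11 lay above (1.25%, against 13.8% of all) and 730 below (83%, against 68.8% of all). Known sites held 94.8% to 95.2% of oxidized and 0.359% to 0.732% of control NextSeq counts, and 59.2% to 59.3% and 0.173% on the MiSeq. This lowers the oxidized CPM of other positions, so nothing is read from the direction. Of the 785 positions tested, 476 had no oxidized NextSeq count at all, so their fitted fold changes carry no size.

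On the MiSeq, 5 positions were called higher in oxidized libraries (10.6% of all tested positions were) and 605 lower (51.6% of all). The 5 were G437, U439, U483, G1088 and C1090, of which only G437 fell under the rule for named positions. They rested on few ends. G1088 had 100 and 100 counts in oxidized and 410 and 360 in control libraries, with a log2 fold change of 2.96 (SE 0.38, edgeR adjusted p = 0.00698), and it had 0 counts in all oxidized NextSeq libraries. G437 had 150 and 50 counts in oxidized and 336 and 486 in control MiSeq libraries, with a log2 fold change of 2.77 (SE 0.72, edgeR adjusted p = 0.0354). No position was called higher in both experiments. A1262, higher on the NextSeq, was called lower on the MiSeq, where it had 50 counts in each oxidized library and TMM moved fold changes less. With the replicate block, 0 positions were called in either direction on the MiSeq, in the stretch or over all 18S and 28S positions. Without control MiSeq replicate 1 or 2, 0 positions of the stretch were called, against 156 (2.36%) or 150 (2.27%) of all.

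The fold changes differed between the experiments at 30 of 786 positions by edgeR's interaction test (8.2% of all tested positions did). With either control MiSeq library left out, all these calls were lost, in the stretch and over all tested positions alike. Such a fit has a lone control MiSeq library, so nothing about the stretch itself is read from the loss.

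Which oxidized ends recurred was examined by counting positions with at least 50 counts. There were 101, 103 and 106 such positions in oxidized NextSeq libraries, and 26 were shared by all 3, which is 25.7%, 25.2% and 24.5% of each. On the MiSeq there were 128 and 116, and 80 were shared, 62.5% and 69.0% of each. 10 positions had at least 50 counts in all 5 oxidized libraries: C421, U424, G430, U431, A1262, C1271, G1272, C1275, C1277 and G1295. The first 4 lay at the 5′ edge of the stretch and the other 6 near its 3′ edge.

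On the NextSeq the 5′ edge was also where control ends were densest, with a mean of 125.3 CPM per position in the first window against 68.3 in the last. On the MiSeq the control means were 86.3 in the first window and 184.3 in the last. Its first 30 nt are printed with the positions among the 5 highest of control NextSeq libraries in capitals (hg19, plus strand, as RNA).
28S from C420, at 113768 to 113797: CcguUaagaGguaaacgGgugggguccgcg
G437 led control NextSeq replicates 1 and 2, with 84827 and 97205 counts, but had 7343 in replicate 3. U424 led replicate 3 with 133954 counts and had 4113 and 6796 in the others. The leading base thus differed between replicates of the same group. In oxidized NextSeq libraries G437 had 0, 0 and 50 counts and U424 had 156, 54 and 108. C421 had 260, 102 and 260 counts there, against 40924, 46273 and 23118 in control. Within the stretch it had the highest mean CPM in oxidized MiSeq libraries, with 765 and 362 counts, although U509 led replicate 2 with 408.

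The ends were also tallied in 8 windows of equal length. The first window held the largest share in control NextSeq and oxidized MiSeq libraries, and the last window in oxidized NextSeq and control MiSeq libraries, the former with A1262 counted. The first window held 30.3%, 30.6% and 52.0% of the stretch's ends in control NextSeq libraries and 23.3%, 16.9% and 19.6% in oxidized ones. On the MiSeq the order was the opposite, 12.3% and 14.9% in control and 35.3% and 35.1% in oxidized libraries. The last window held 19.3% to 22.0% in control and 29.6% to 34.2% in oxidized NextSeq libraries, and 28.03% to 32.5% in all MiSeq libraries. A1262 lies in the last window. Without it that window held 20.9%, 26.4% and 19.95% of the oxidized NextSeq ends, which overlapped the 19.2% to 21.8% of control, and the first window held more than the last in oxidized replicates 1 and 3 (26.2% and 22.6%). The difference of the last window over both experiments was 5.83 percentage points with A1262 (adjusted exact permutation p = 0.133) and 1.37 without it (adjusted exact permutation p = 0.667). Windows 4 and 5 held the runs without counts, 49 and 45 positions of them. Over both experiments, windows 3 and 6 differed by -4.24 and -3.47 percentage points, oxidized minus control (exact permutation p = 0.0167 each, the smallest possible). After adjustment over 8 windows both missed the threshold (adjusted exact permutation p = 0.0667). At that smallest p these windows could not have passed on their own.

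**Figure D4:**
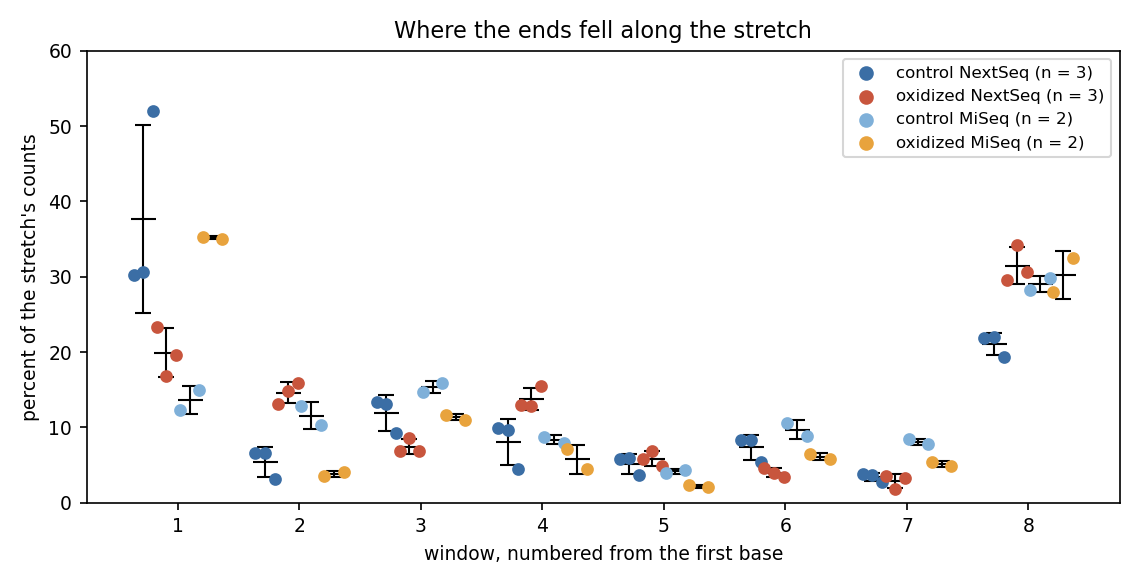
Percent of the stretch's counts in each of 8 equal windows, numbered from the first base, with each library as a point and the group mean and SD as bars. In the first window oxidized libraries lay below control on the NextSeq and above it on the MiSeq, and the last window, which holds A1262, had 19.3% to 34.2% in all libraries.

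The base at the end was tallied for the 4 bases. A made up 7.27% of the positions, and it took 7.56%, 7.30% and 15.99% of the control and 20.8%, 18.7% and 19.3% of the oxidized NextSeq ends. A1262 made up much of the A share in oxidized NextSeq libraries. C took 39.8%, 39.7% and 27.7% in control and 44.5%, 46.8% and 44.9% in oxidized NextSeq libraries. On the MiSeq, A took 12.5% and 12.8% in control and 16.2% and 12.3% in oxidized libraries, which overlapped, and C took 38.1% and 36.6% in control and 39.0% and 37.9% in oxidized libraries, which also overlapped. The oxidized-minus-control difference was 9.30 points for A and 9.66 for C on the NextSeq (exact permutation p = 0.1 for both, the smallest possible), and 1.61 for A and 1.11 for C on the MiSeq (exact permutation p = 1 and 0.667, with 0.333 the smallest possible). G, at 40.5% of positions, took 48.3%, 48.6% and 33.6% in control and 24.0%, 26.9% and 26.5% in oxidized NextSeq libraries, and 36.9% and 37.4% against 29.7% and 32.2% on the MiSeq. Across both experiments the oxidized-minus-control difference was -11.98 percentage points for G (exact permutation p = 0.0167) and 5.46 and 5.39 points for A and C (p = 0.05 and 0.0333). Without A1262, the highest position of the stretch, the difference for A was 0.22 points (adjusted exact permutation p = 0.933), whereas those for C and G were 8.35 and -10.33 points. With A1262 kept and after adjustment over the 4 bases, A, C and G each had an exact permutation p = 0.0667, so none passed. The unadjusted p of G was the smallest possible, so G could not have passed on its own. U differed by 1.14 points (adjusted exact permutation p = 0.817).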

How the data were processed

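The members, lists and tests were chosen with earlier results of these data known. The authors deposited counts per position: whole numbers, not normalized, described as sense reads with a 3′-end there. They report fewer reads for the control libraries than these counts sum to, so what a count stands for is not known. They trimmed reads with cutadapt 1.12, collapsed PCR duplicates by the randomer and adjoining RNA sequence, aligned with TopHat2 2.1.1 to hg19 (GRCh37) 18S and 28S, and sorted with SAMtools 0.1.19. Their tables of DESeq2 comparisons, which hold fold changes, p-values and positions passing thresholds, were not used. Lines for other rRNA held 0 counts and were left out.

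Counts were compared with edgeR 4.0.16 in R 4.3.3 (TMM, quasi-likelihood test, positions with at least 1 count, NextSeq and MiSeq fitted separately, p-values adjusted over all positions). DESeq2 1.42.0 was an alternative, as were other scalings, filters, counts divided by 50, the replicate number as a block, passage as a covariate, and leaving out each library. TMM moved the median log2 fold change of all NextSeq positions from -6.26 (library totals) to -2.25, and that of all MiSeq positions from -4.98 to -4.76. Fold changes are thus relative to it and are not on the same scale in both experiments. Shares were tested by exact permutation over libraries. Total counts were 72458614 to 80964624 in control and 12293410 to 13694386 in oxidized NextSeq libraries, and 30392418 to 44061905 and 1353768 to 1568883 on the MiSeq.

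The positions named were the 5 highest by mean CPM in oxidized NextSeq, in control NextSeq and in oxidized MiSeq libraries, the 5 largest and 5 smallest NextSeq log2 fold changes among positions with a count in all 6 libraries, any position passing a log2 fold change of 6 with an adjusted p under 0.05, and the 3 longest runs of 0 in control NextSeq libraries. Same-numbered control and oxidized libraries did not deviate together (correlations of -0.02 to 0.03 on the NextSeq and -0.0094 on the MiSeq). With sparse oxidized counts and 2 libraries per MiSeq group, this could not exclude that the numbers pair them. On the NextSeq the same numbers had the same passage. Counted in steps of 50, control NextSeq replicates 1 and 2 differed slightly (chi-square per degree of freedom 1.13 over all positions), and the oxidized MiSeq pair, the only pair of its group, did not (1.05, p = 0.150 by a chi-square test); their files differ, and they were kept as separate libraries.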

Additional observations from a re-analysis of the deposited data

Results flagged for a closer look

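At A1262 the oxidized-minus-control log2 fold change was lower on the MiSeq than on the NextSeq, by a difference of -5.93 (edgeR interaction adjusted p = 0.0166). At G594 the same difference was -18.56 (edgeR adjusted p = 0.0130). Both values are relative to TMM, and with library totals only they were -2.78 at A1262 and -15.21 at G594. Neither passed when control MiSeq replicate 1 or 2 was left out, with an edgeR adjusted p of 0.0921 or 0.0828 at A1262 and 0.0748 or 0.0749 at G594. That of A1262 also missed the threshold without either oxidized MiSeq library and with library totals only (edgeR adjusted p = 0.0549 to 0.0782). G594 had 0 counts in both oxidized MiSeq libraries, against 14138 and 9476 in control, so the fitted size of that difference depends on the prior count and is no bound.

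The following differences had opposite signs in every pair of libraries of the experiments, and the difference between experiments was not tested. The share of the stretch's ends in the first window differed by -17.7 percentage points on the NextSeq and 21.6 on the MiSeq. In window 2 the differences were 9.16 and -7.72 points, and in window 4 they were 5.75 and -2.57 points. Single positions held much of both on the NextSeq. Without C595, chosen after its values were seen, the window 2 differences were 3.61 and -7.57 points. Without C835, chosen likewise, those of window 4 were 1.44 and -3.61 points, and the NextSeq groups overlapped (7.24%, 9.05% and 9.30% in oxidized, 8.56%, 8.24% and 4.46% in control libraries). The log2 ratio of the stretch to the last 410 nt of 28S differed by -0.43 on the NextSeq and 0.11 on the MiSeq.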

How the results depend on the processing

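The share of background ends in the stretch lay lower in oxidized libraries under every alternative run. The difference was -3.43 to -3.24 percentage points with each library left out and -4.76 with known sites kept. Pairing same-numbered libraries (replicate block) left it at -3.35. As the stretch was picked with the NextSeq contrast in view, no p is given for it. No position of the stretch reached a log2 fold change of 6 with an adjusted p under 0.05 in either experiment under any alternative run.

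Counts of called positions moved with the processing, in the stretch and over all 18S and 28S positions (the count in parentheses), and the cause was not tested. On the NextSeq, positions higher in oxidized libraries numbered 4 (327) with DESeq2, 0 (95) with library totals only, 0 (115) with the replicate block, 1 (117) with counts divided by 50, and 0 to 4 (105 to 469) with each library left out. Positions lower numbered 349 (2221) with DESeq2, 509 (4332) with library totals only, 4 (64) with the replicate block, 0 (2) with counts divided by 50, and 1 to 271 (22 to 1686) with each library left out. With library totals only, these were 64.8% of the tested positions of the stretch and 64.5% of all, against 26.4% and 18.8% with TMM. With passage as a covariate, 3 (297) were higher and 297 (1778) lower. With the filterByExpr filter, which leaves fewer positions tested, 2 (218) were higher and 291 (1627) lower, the latter 44.6% of the tested positions of the stretch and 25.9% of all. On the MiSeq, positions higher numbered 9 (890) with DESeq2, 2 (654) with library totals only, 0 (0) with the replicate block, 3 (638) with counts divided by 50, and 0 to 15 (121 to 1054) with each library left out. Positions lower numbered 633 (3634) with DESeq2, 617 (3545) with library totals only, 0 (0) with the replicate block, 306 (2330) with counts divided by 50, and 0 to 672 (27 to 4099) with each library left out, where a lone library is assumed to vary like the others. Positions that differed between the experiments numbered 50 (1072) with library totals only and 0 to 44 (0 to 870) with each library left out. Whether the numbers pair the libraries is not known, and not every NextSeq library correlated best with its own number.

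The log2 difference between the stretch and expansion segment 27 was -1.42 with known sites kept, since the latter holds 1 known site, and 0.65 to 0.82 with each library left out. The difference in percent of ends, with each library left out, was 4.48 to 6.88 for A, 3.38 to 6.40 for C, -14.46 to -10.71 for G and -0.39 to 4.20 for U, -4.92 to -3.86 in window 3, -3.95 to -3.01 in window 6 and 4.70 to 6.96 in window 8. Without A1262 the differences were 0.22 for A, 8.35 for C and 1.37 in window 8 (adjusted exact permutation p = 0.933, 0.0667 and 0.667). Alternatives chosen after seeing the data turned window 2 from 0.72 to -1.98 without C595 and window 4 from 1.59 to -1.08 without C835 (adjusted exact permutation p = 0.578 and 0.613). With libraries left out, these passed exact permutation after adjustment (adjusted p = 0.0333 to 0.0444) without control NextSeq replicate 3 (C, G and U), without control MiSeq replicate 1 (C and G), without oxidized MiSeq replicate 2 (A, C and G) and without oxidized MiSeq replicate 1 (windows 3, 6 and 8).

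Among named positions, the NextSeq log2 fold change of U431 was -0.091 with DESeq2, -0.091 with RLE size factors, -4.35 with library totals only, -0.50 with counts divided by 50 and -0.53 to 2.09 with each library left out. That of U424 was up to 0.52 and that of G1295 -0.49 to 0.29 with each library left out. With library totals only it was -1.20 at G594, -2.28 at A722 and -3.00 at C835. On the MiSeq, C835 had -0.24 with the replicate block and -3.56 to 2.83 with each library left out, C421 -0.84 to 0.14, U509 -0.68 to 0.38 and C1291 -1.73 to 0.28.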
